A study of Mus musculus with 12 samples.

Results

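The antioxidant and lipid peroxide defence genes described here are 10 mouse genes: Acsl4, Gpx4, Sod1, Sod2, Cat, Prdx1, Gclc, Gclm, Txnrd1 and Hmox1. They were taken as listed, and a gene had a value where a probe set, the array's group of probes for a transcript, carried its symbol and no other. That held for 9 of the 10, with 1 such probe set each, of 22180 genes with a value in all. All 9 passed the filter on dim genes, as did 14323 genes of the array. Prdx1, a peroxiredoxin that reduces hydrogen peroxide, has no value here because each of its 3 probe sets also carries other symbols.

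Linoleic acid is a polyunsaturated fatty acid, and such acids are the ones in membranes that oxygen radicals turn into lipid peroxides. Cells meet this in steps: superoxide dismutases convert superoxide to hydrogen peroxide, catalase and peroxiredoxins remove the peroxide, and glutathione peroxidase 4 reduces lipid peroxides inside the membrane with glutathione as the electron source. T cells that lack Gpx4 are known to accumulate lipid peroxides and die by ferroptosis. Several of the genes, among them Gclc, Gclm, Txnrd1, Prdx1 and Hmox1, are textbook targets of NRF2, the transcription factor that oxidants and electrophiles release from its inhibitor KEAP1.

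Mouse spleen cells were kept for 24 h with linoleic acid at 50 µM or without it, and T cells were then sorted by CD4 or CD8. The 4 groups of 3 arrays are CD8 T cells after linoleic acid culture, CD8 T cells after control culture, CD4 T cells after linoleic acid culture and CD4 T cells after control culture, so the fatty acid acted on whole spleen cell cultures and not on purified T cells. Strain, sex, age and vehicle were not given in the sources used here, and no label says that arrays of a group came from separate animals or cultures. The spread between the 3 arrays of a group may thus be technical, and the p-values measure nothing wider than it. The study asks whether CD4 and CD8 T cells respond differently to linoleic acid.

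Values are log2 intensities of single arrays, and a log2 difference of 1 is a 2-fold difference. The sorted populations carried their markers. CD8 markers averaged 9.70 to 10.13 on the 6 CD8 arrays and 6.24 to 7.06 on the 6 CD4 arrays, CD4 markers 4.96 to 5.37 and 8.22 to 8.74, and T cell markers 9.78 to 10.23 on all 12. B cell markers followed the replicate number in the labels, with list means over 12 of 15 genes of 6.04 to 6.54 on the 4 arrays numbered 1 and of 7.35 to 7.98 on those numbered 2 and 3. They were also lower on the CD8 than on the CD4 array in all 6 same-numbered pairs, by -0.45, -0.52 and -0.49 in linoleic acid culture and by -0.49, -0.46 and -0.28 in control culture. Of these 12 genes, only Cr2 lay below log2 5.10, the 95th percentile of 1443 chemosensory receptor genes that served as a gauge of background. Myeloid markers averaged 4.77 to 5.35, with 14 of 20 below that level.

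Linoleic acid culture put none of the 9 measured genes past the threshold of an adjusted p of 0.05 in limma in either cell type. In CD8 T cells 0 of 9 passed, against 0% of all genes tested, and 0 of 9 had an unadjusted p under 0.05, against 5.08% of all genes. In CD4 T cells 0 of 9 passed, again against 0% of all genes tested, and 1 of 9, Hmox1, had an unadjusted p under 0.05, against 2.6% of all genes. Treated and control arrays stood apart without overlap for 0 of 9 genes in either cell type, against 9.01% of all genes in CD8 T cells and 7.44% in CD4 T cells. With the replicate number as a block 0 of 9 passed in both cell types and 1 other gene passed in each, 0.00698% of those tested. Unadjusted p with the block lay under 0.05 for 0 of 9 in CD8 T cells, against 13.5% of all genes, and for 1 of 9, Hmox1, in CD4 T cells, against 5.61%. In RNA of a sorted population, a change per cell and a change in which cells make up the population cannot be told apart.

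For the 8 genes other than Hmox1 the 95% intervals of the measured intensities ran from 1.73-fold lower to 1.26-fold higher with linoleic acid in CD8 T cells, and from 1.37-fold lower to 1.53-fold higher in CD4 T cells. These intervals are not corrected for the number of genes. Hmox1 lay below the background gauge, where intensity differences are compressed, so its interval, which reached 1.47-fold in CD8 and 1.86-fold in CD4 T cells, sets no bound on its RNA. For scale, Cpt1a, the carnitine transferase that lets fatty acids into mitochondria for oxidation, measured 1.87-fold higher with linoleic acid in CD8 T cells and 2.52-fold higher in CD4 T cells on the same arrays (adjusted p = 0.757 and 0.845 in limma). Cpt1a was picked because earlier results of these data had it highest with linoleic acid, so it marks an extreme and not a typical gene. The median log2 difference over the 9 genes was -0.09 in CD8 T cells, against -0.06 over all genes, and 0.08 in CD4 T cells, against -0.00. With 1 array left out in turn these medians lay between -0.18 and -0.01 and between -0.05 and 0.15.

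**Figure D1:**
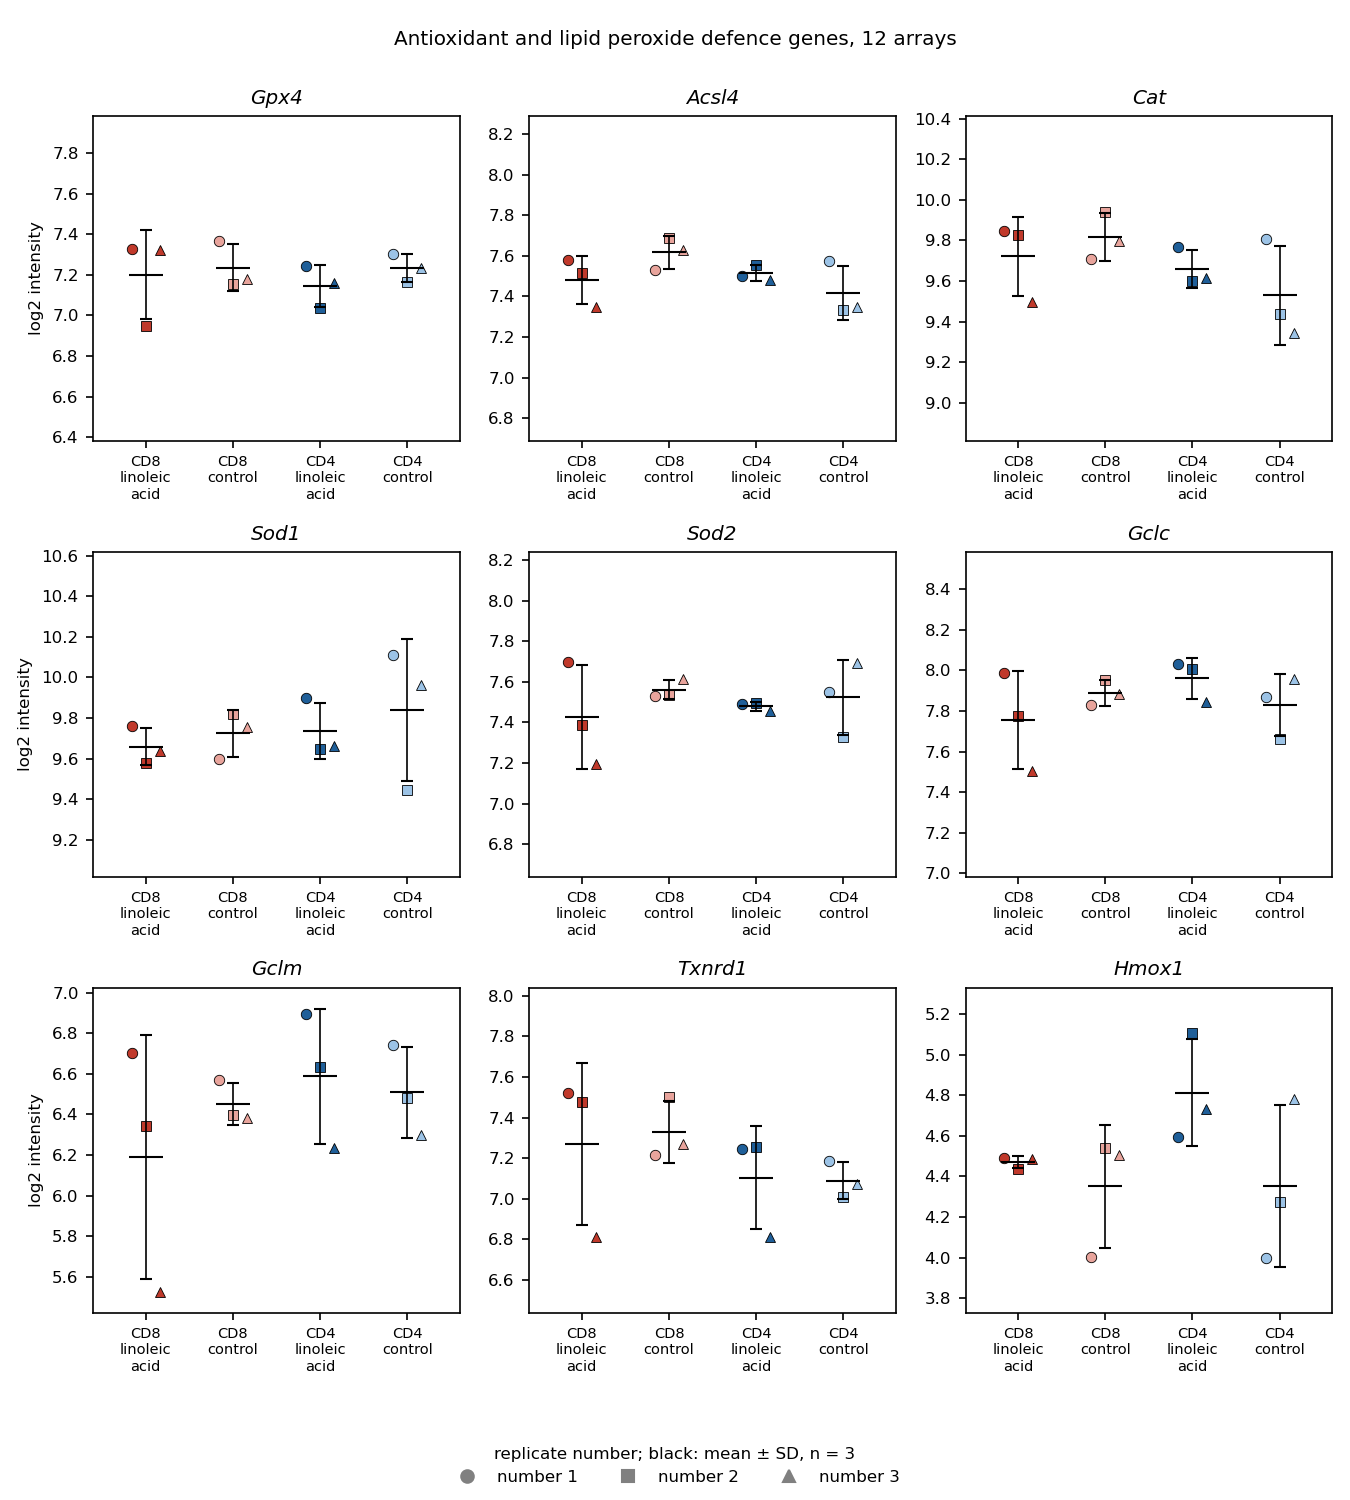
Log2 intensity of the 9 measured genes on each of the 12 arrays, by group (points, shaped by replicate number) with the mean and SD of 3 arrays (black); every panel spans the same height of 1.6 log2 units. The groups overlap for nearly all genes, and the lowest Gclm value, 5.53, belongs to the CD8 linoleic acid array numbered 3.

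The lipid peroxide axis came first, with Acsl4 and Gpx4. Acsl4, the acyl-CoA synthetase that prefers long polyunsaturated fatty acids and so prepares them for membrane phospholipids, measured 7.58, 7.52 and 7.35 in CD8 T cells with linoleic acid, against 7.53, 7.69 and 7.63 in CD8 control cells (here and below in the order of the replicate numbers 1, 2 and 3). Acsl4 measured 7.50, 7.56 and 7.48 in CD4 T cells with linoleic acid, against 7.57, 7.33 and 7.35 in CD4 control cells. Treated and control arrays overlapped in both cell types. The log2 difference was -0.14 ± 0.11 (SE, n = 3 per group, 95% interval -0.38 to 0.11) in CD8 T cells and 0.10 ± 0.11 (-0.15 to 0.34) in CD4 T cells.

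Gpx4, the selenoenzyme that reduces phospholipid hydroperoxides, measured 7.33, 6.95 and 7.32 in CD8 T cells with linoleic acid, against 7.37, 7.16 and 7.18 in CD8 control cells. Gpx4 measured 7.24, 7.04 and 7.16 in CD4 T cells with linoleic acid, against 7.30, 7.17 and 7.23 in CD4 control cells. Arrays numbered 2 were the lowest of their group in all 4 groups, and treated and control arrays overlapped. The log2 difference was -0.03 ± 0.13 (-0.31 to 0.24) in CD8 T cells and -0.09 ± 0.13 (-0.36 to 0.19) in CD4 T cells. In CD4 T cells Gpx4 was lower with linoleic acid in each same-numbered pair, by -0.06, -0.13 and -0.07, the single gene of the 9 for which all 3 pairs ran one way in a comparison of the 2 cultures. Its limma adjusted p there was 1, and 0.969 with the replicate block.

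The promoter of Acsl4 is shown because its values over the arrays ran most like those of Cat among the 36 pairs of the 9 genes, and that of Cat is shown with it. Both are RefSeq windows of 300 bases, from 250 before to 50 after the annotated start, on mouse build GRCm38.p6, written 5′ to 3′ along the gene's strand, the minus strand for both. Acsl4 lies at chrX:142390486-142390785, and its capitals mark 2 matches of TGAGNNNGC, a form of the antioxidant response element core that NRF2 binds, both read on the opposite strand and starting at -219 and -55 from the gene's start. Cat lies at chr2:103485104-103485403, and its capitals mark 4 CCAAT boxes, the motif of the factor NF-Y, on either strand, starting at -230, -85, -55 and -13.
Acsl4: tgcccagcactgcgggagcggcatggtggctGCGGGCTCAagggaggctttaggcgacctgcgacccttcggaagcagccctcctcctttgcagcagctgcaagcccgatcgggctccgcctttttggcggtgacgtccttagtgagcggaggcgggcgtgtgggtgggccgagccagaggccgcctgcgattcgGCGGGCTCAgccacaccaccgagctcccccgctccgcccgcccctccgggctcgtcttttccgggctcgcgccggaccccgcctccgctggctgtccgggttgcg
Cat: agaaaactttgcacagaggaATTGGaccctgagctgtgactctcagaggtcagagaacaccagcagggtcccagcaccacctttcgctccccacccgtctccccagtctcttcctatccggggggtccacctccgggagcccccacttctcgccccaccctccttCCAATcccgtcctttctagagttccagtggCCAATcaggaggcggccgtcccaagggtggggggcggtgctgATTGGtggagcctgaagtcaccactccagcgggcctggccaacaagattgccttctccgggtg
The element core was searched as TGACNNNGC and TGAGNNNGC on both strands, and 27.8% of 32851 RefSeq windows of this length hold either form, while 37.4% hold CCAAT. Acsl4 has 0 CCAAT boxes and Cat has 0 element cores in these windows, so the letters searched for are not shared by the pair. A match describes the letters and not a bound site.

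Superoxide and hydrogen peroxide are the substrates of the next 3 enzymes. Sod1, the cytosolic copper-zinc superoxide dismutase, measured 9.76, 9.58 and 9.64 in CD8 T cells with linoleic acid, against 9.60, 9.82 and 9.76 in CD8 control cells. Sod1 measured 9.90, 9.65 and 9.66 in CD4 T cells with linoleic acid, against 10.11, 9.45 and 9.96 in CD4 control cells. The CD4 control arrays alone spanned the whole range of the other 3 groups. The log2 difference with linoleic acid was -0.07 ± 0.16 (-0.41 to 0.27) in CD8 T cells and -0.10 ± 0.16 (-0.44 to 0.23) in CD4 T cells.

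Sod2, the manganese dismutase of mitochondria, measured 7.70, 7.39 and 7.19 in CD8 T cells with linoleic acid, against 7.53, 7.54 and 7.62 in CD8 control cells. Sod2 measured 7.49, 7.49 and 7.45 in CD4 T cells with linoleic acid, against 7.55, 7.33 and 7.69 in CD4 control cells. The treated CD8 arrays lay on both sides of their controls, with number 1 above all 3 of them and numbers 2 and 3 below. The log2 difference was -0.13 ± 0.14 (-0.43 to 0.16) in CD8 T cells and -0.04 ± 0.14 (-0.34 to 0.25) in CD4 T cells.

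Cat encodes catalase, the peroxisomal enzyme that breaks hydrogen peroxide down without a reductant. It measured 9.85, 9.82 and 9.50 in CD8 T cells with linoleic acid, against 9.71, 9.94 and 9.80 in CD8 control cells. The values were 9.77, 9.60 and 9.62 in CD4 T cells with linoleic acid, against 9.81, 9.44 and 9.34 in CD4 control cells. Treated and control arrays overlapped in both, and same-numbered pairs ran in both directions. The log2 difference was -0.09 ± 0.14 (-0.40 to 0.22) in CD8 T cells and 0.13 ± 0.14 (-0.18 to 0.44) in CD4 T cells.

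Glutathione, the electron source of Gpx4, is made in a first, rate-limiting step by glutamate-cysteine ligase, of which Gclc is the catalytic and Gclm the modifier subunit. Gclc measured 7.99, 7.78 and 7.50 in CD8 T cells with linoleic acid, against 7.83, 7.95 and 7.88 in CD8 control cells. Gclc measured 8.03, 8.01 and 7.85 in CD4 T cells with linoleic acid, against 7.87, 7.66 and 7.96 in CD4 control cells. The treated CD8 arrays numbered 2 and 3 lay below all 3 controls and number 1 above them. The log2 difference was -0.13 ± 0.14 (-0.42 to 0.16) in CD8 T cells and 0.13 ± 0.14 (-0.16 to 0.42) in CD4 T cells.

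Gclm had the widest spread of the 9 genes, with a pooled SD within groups of 0.37 log2 units. It measured 6.70, 6.34 and 5.53 in CD8 T cells with linoleic acid, against 6.57, 6.40 and 6.38 in CD8 control cells. Gclm measured 6.90, 6.63 and 6.23 in CD4 T cells with linoleic acid, against 6.74, 6.48 and 6.30 in CD4 control cells. The array numbered 1 was the highest and the array numbered 3 the lowest in all 4 groups. The log2 difference with linoleic acid was -0.26 ± 0.25 (-0.79 to 0.27) in CD8 T cells and 0.08 ± 0.25 (-0.45 to 0.61) in CD4 T cells. Without the CD8 linoleic acid array numbered 3 the CD8 value was 0.07, so its sign rested on that array.

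The NADPH-driven reductase Txnrd1, which keeps cytosolic thioredoxin reduced and through it the peroxiredoxins, measured 7.52, 7.48 and 6.81 in CD8 T cells with linoleic acid, against 7.22, 7.50 and 7.27 in CD8 control cells. Txnrd1 measured 7.25, 7.26 and 6.81 in CD4 T cells with linoleic acid, against 7.19, 7.01 and 7.07 in CD4 control cells. The linoleic acid array numbered 3 was the lowest in both cell types. The log2 difference was -0.06 ± 0.18 (-0.45 to 0.34) in CD8 T cells and 0.01 ± 0.18 (-0.38 to 0.41) in CD4 T cells. Without the CD8 linoleic acid array numbered 3 the CD8 value was 0.17.

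The promoters of Gclm and Txnrd1 are shown because both genes are textbook NRF2 targets and both were lowest on the CD8 linoleic acid array numbered 3. For Txnrd1 that value, 6.810, was nearly met by the CD4 linoleic acid array numbered 3, at 6.811. These RefSeq windows, also on GRCm38.p6, lie on the plus strand at chr3:122245307-122245606 for Gclm and at chr10:82858956-82859255 for Txnrd1, whose annotation holds 3 windows. The other windows of Txnrd1 hold no element core. Capitals mark a match of TGACNNNGC on the opposite strand, starting at -134 in Gclm and at -92 in Txnrd1.
Gclm: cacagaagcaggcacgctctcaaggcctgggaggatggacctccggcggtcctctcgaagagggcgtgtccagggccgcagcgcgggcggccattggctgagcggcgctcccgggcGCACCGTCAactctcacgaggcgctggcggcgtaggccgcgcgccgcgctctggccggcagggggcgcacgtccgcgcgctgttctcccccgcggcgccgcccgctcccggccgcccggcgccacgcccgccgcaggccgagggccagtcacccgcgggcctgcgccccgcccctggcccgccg
Txnrd1: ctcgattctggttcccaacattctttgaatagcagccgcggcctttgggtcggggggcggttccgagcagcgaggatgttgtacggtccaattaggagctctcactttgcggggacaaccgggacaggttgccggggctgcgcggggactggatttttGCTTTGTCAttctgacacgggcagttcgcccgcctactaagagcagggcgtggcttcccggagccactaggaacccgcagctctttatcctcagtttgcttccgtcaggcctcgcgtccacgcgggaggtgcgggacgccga
This form of the core stands in 12.4% of all windows and TGAGNNNGC in 17.6%. Over both forms, 5 of the 8 listed genes with a RefSeq window held a core in at least 1 window, namely Acsl4, Gclm, Prdx1, Sod1 and Txnrd1, and 3 did not, namely Cat, Gpx4 and Sod2. Gpx4 has 4 windows and Txnrd1 3, so these had more letters to match in than the genes with 1. Counted by window, 5 of the 13 windows of the 8 genes held a core, against 27.8% of all windows. The other 2 listed genes are Hmox1 and Gclc.

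Heme oxygenase, encoded by Hmox1, breaks down heme to biliverdin, carbon monoxide and iron. It measured 4.49, 4.44 and 4.49 in CD8 T cells with linoleic acid, against 4.0, 4.54 and 4.51 in CD8 control cells. Hmox1 measured 4.60, 5.11 and 4.73 in CD4 T cells with linoleic acid, against 4.0, 4.27 and 4.78 in CD4 control cells. Its mean over the 12 arrays, 4.50, lay below the background gauge of 5.10, and the CD4 linoleic acid array numbered 2 was the single array above it. Treated and control arrays overlapped in both cell types.

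The log2 difference of Hmox1 with linoleic acid was 0.12 ± 0.20 (-0.31 to 0.55) in CD8 T cells and 0.46 ± 0.20 (0.03 to 0.89) in CD4 T cells. The CD4 value, 1.38-fold, had an unadjusted p of 0.0382 and a limma adjusted p of 1, and 0.00984 and 0.714 with the replicate block, so it did not pass. Same-numbered CD4 arrays differed by 0.60, 0.83 and -0.05. Without the CD4 linoleic acid array numbered 2 the value was 0.31 (unadjusted p = 0.171 and adjusted p = 1 in limma), and without the CD4 control array numbered 1 it was 0.28 (0.188 and 1). Without the CD4 control array numbered 3 it was 0.68 (0.00372 and 1), the top of the range over the arrays left out. Hmox1 is abundant in macrophages, and myeloid markers averaged 4.83, 5.19 and 5.18 in CD4 T cells with linoleic acid, against 4.81, 5.10 and 5.12 in control. In CD8 T cells they averaged 4.77, 5.21 and 5.35 with linoleic acid, against 4.77, 5.01 and 5.02 in control. The part of myeloid cells in the Hmox1 values was not tested.

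**Figure D2:**
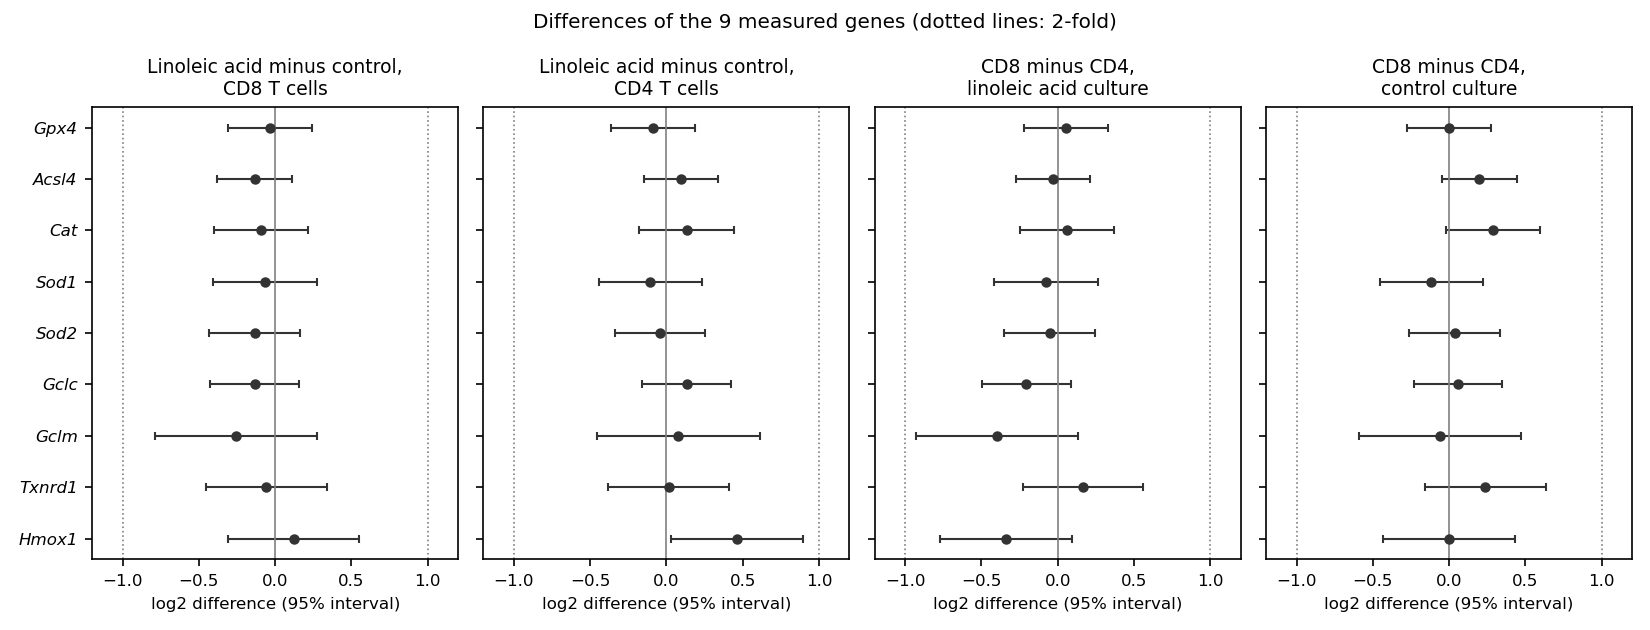
Log2 differences of the 9 genes (points) with limma's 95% intervals (bars, not corrected for the number of genes) for linoleic acid minus control in CD8 and CD4 T cells and for CD8 minus CD4 T cells in each culture, n = 3 arrays per group. All intervals lie within the dotted 2-fold lines, and only that of Hmox1 in CD4 T cells, 0.03 to 0.89, does not include 0.

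The study's question is whether the cell types respond differently, and for these genes the difference between responses was taken as the CD4 minus the CD8 log2 difference. In limma 0 of 9 passed, against 0% of all genes tested, with adjusted p of 0.953 to 0.99, and 0 of 9 had an unadjusted p under 0.05, against 2.35% of all genes (0 of 9 and 8.3% with the replicate block). Of the 9, 7 lay above 0 and 2, Gpx4 and Sod1, below it. The median was 0.23, against 0.04 as the median over all genes. The largest values were 0.34 ± 0.28 for Hmox1, 0.34 ± 0.35 for Gclm and 0.26 ± 0.19 for Gclc, and the widest interval, that of Gclm, reached 1.09, a 2.13-fold difference between responses.

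A single array carried most of that median. Without the CD8 linoleic acid array numbered 3 the median over the 9 genes was 0.01, with 6 above 0 and 3 below, and 0.02 was the median over all genes. In CD8 T cells 8 of 9 genes lay below their control with that array and 5 of 9 without it, when their median was -0.01. Hmox1 stood at 0.35 for the difference between responses without it.

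Averaged over both cell types, with 6 arrays per culture, 0 of 9 genes passed, against 0% of all genes tested (0.182% with the replicate block, where 0 of 9 passed too). In limma 0 of 9 had an unadjusted p under 0.05, against 4.84% of all genes, and with the block 1 of 9, Hmox1 (unadjusted p = 0.0189, adjusted p = 0.402), against 9.75%. Hmox1 stood at 0.29 ± 0.14 (-0.01 to 0.60, adjusted p = 0.925), and the other 8 lay between -0.09 and 0.02.

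CD8 and CD4 T cells were then compared within each culture. These comparisons share arrays with those of linoleic acid, and the B cell marker means, lower on every CD8 array than on its same-numbered CD4 array, moved with them. The part of B cells in the values below was not tested. In linoleic acid culture 0 of 9 genes passed, against 2.03% of all genes tested (5.57% with the replicate block, where 0 of 9 passed as well), and 0 had an unadjusted p under 0.05, against 11.8% of all genes. With the block 2 of 9 had an unadjusted p under 0.05, Gclm (0.0192, adjusted p = 0.161) and Hmox1 (0.0453, adjusted p = 0.249), against 19.1% of all genes. In control culture 0 of 9 passed, against 1.95%, and 0 had an unadjusted p under 0.05, against 9.37%. Adjusted p in limma ran from 0.56 to 0.945 in linoleic acid culture and from 0.593 to 1 in control culture.

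In linoleic acid culture the arrays of the cell types did not overlap for 1 of 9 genes, Hmox1, against 15.3% of all genes. Its CD8 values of 4.44 to 4.49 all lay below its CD4 values of 4.60 to 5.11 (log2 difference -0.34 ± 0.20, adjusted p = 0.56), all but 1 under the background gauge. Gclm stood at -0.40 ± 0.25 (-0.93 to 0.13, adjusted p = 0.591), and at -0.06 without the CD8 linoleic acid array numbered 3. Sod1, Hmox1, Gclm and Gclc were lower in CD8 T cells in all 3 same-numbered pairs, and no gene was higher in all 3. The pairs of Gclc differed by -0.05, -0.23 and -0.34 and those of Sod1 by -0.14, -0.07 and -0.02.

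In control culture the arrays did not overlap for 1 of 9 genes, Txnrd1, against 16.1% of all genes. It was 7.22 to 7.50 in CD8 T cells and 7.01 to 7.19 in CD4 T cells (0.24 ± 0.18, -0.16 to 0.63, adjusted p = 0.825), and same-numbered pairs differed by 0.03, 0.49 and 0.20. Cat stood at 0.29 ± 0.14 (-0.02 to 0.60, unadjusted p = 0.0665, adjusted p = 0.593), with pairs at -0.10, 0.50 and 0.46. In limma with the replicate block, not taken as a pairing in this culture, Cat had an unadjusted p of 0.0392 and an adjusted p of 0.303. Acsl4 stood at 0.20 ± 0.11 (-0.05 to 0.44, adjusted p = 0.682), with pairs at -0.04, 0.35 and 0.28. For both genes the CD4 control arrays numbered 2 and 3 were the low ones, and the pair numbered 1 lay near 0.

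Averaged over cultures, CD8 against CD4, 0 of 9 genes passed, against 4.71% of all genes tested, and 0 had an unadjusted p under 0.05, against 14.4%. Txnrd1 at 0.20 ± 0.13, Cat at 0.17 ± 0.10 and Gclm at -0.23 ± 0.17 were the largest values. With 1 array left out the Gclm value ran from -0.36 to -0.06, and stood at -0.06 without the CD8 linoleic acid array numbered 3. Over all 7 comparisons and 9 genes, 63 tests, the smallest adjusted p in limma was 0.504, that of Cat in this comparison.

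The order of the 4 groups was weakly set for every gene. Of the 27 gaps between neighbouring group means, 2 were wider than the gene's pooled SD within groups. One was the gap of 0.34 between CD4 linoleic acid and CD8 linoleic acid arrays for Hmox1 (pooled SD 0.28), the top 2 groups of that gene. The other was the gap of 0.10 between CD8 control and CD4 linoleic acid arrays for Acsl4, whose pooled SD of 0.10 it exceeded by little. The range of the 4 group means was 0.64 pooled SD for Gpx4, the smallest ratio, and 2.0 for Acsl4, the largest. Cat and Txnrd1 had the same order, CD8 control, CD8 linoleic acid, CD4 linoleic acid, CD4 control.

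For some of these genes, Gclm and Txnrd1 among them, the means by replicate number lay further apart than the 4 group means. For Hmox1 they did not. Gclm was 6.57 to 6.90 on the 4 arrays numbered 1, 6.34 to 6.63 on those numbered 2 and 5.53 to 6.38 on those numbered 3, so arrays numbered 1 did not overlap with those numbered 3. Txnrd1 averaged 7.29, 7.31 and 6.99 over the arrays numbered 1, 2 and 3. Hmox1 averaged 4.27, 4.59 and 4.63, and its 2 lowest values, 4.0 each, were control arrays numbered 1.

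The labels do not say what a number marks. The mean of the chemosensory receptor genes was 2.99 to 3.15 on arrays numbered 1 and 3.27 to 3.46 on those numbered 3, with the highest value, 3.46, on the CD8 linoleic acid array numbered 3. B cell and myeloid marker means were also lowest on the arrays numbered 1. The part of these in the values of Gclm, Txnrd1 and Hmox1 was not tested.

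**Figure D3:**
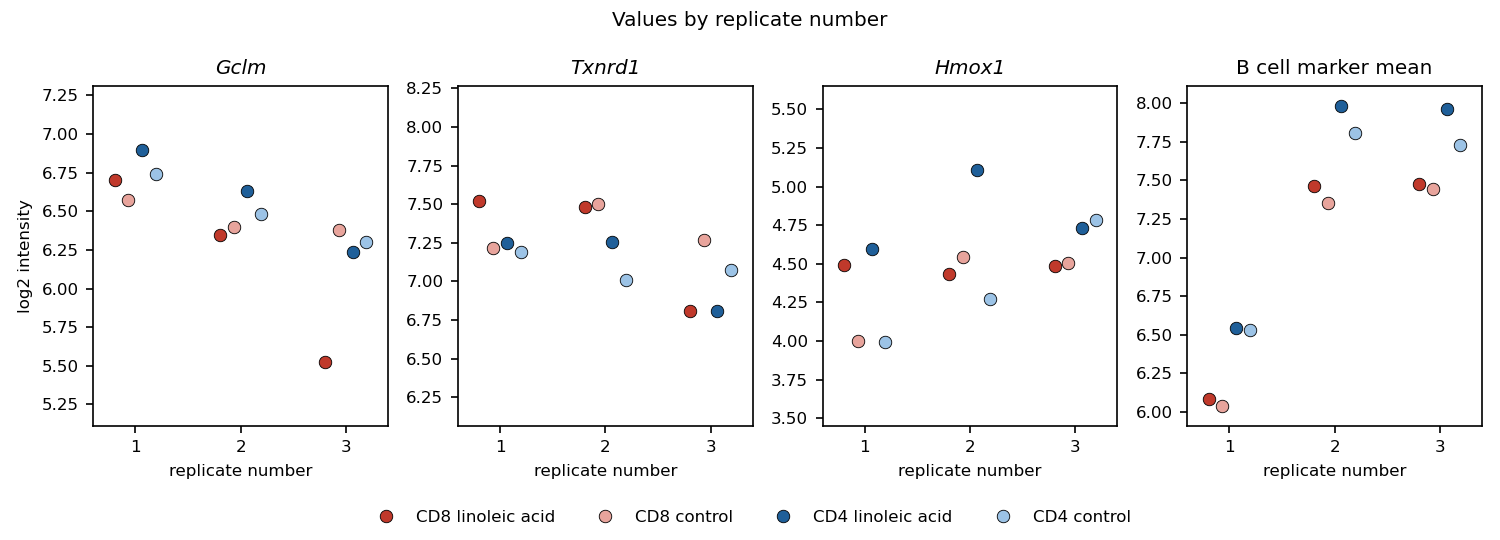
Log2 intensity of Gclm, Txnrd1 and Hmox1 and the mean of 12 B cell markers by replicate number, 1 point for each of the 4 groups, offset sideways by group; every panel spans 2.2 log2 units. Gclm is highest on arrays numbered 1 (6.57 to 6.90) and lowest on those numbered 3, while the B cell mean is lowest on arrays numbered 1 (6.04 to 6.54).

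Pairs of the 9 genes were compared over the 12 arrays as a description. The arrays share groups and numbers and are not 12 independent samples. Of 36 pairs 5 had a Pearson r above 0.7 and 11 lay below 0. Cat and Acsl4 ran most alike, with r of 0.897 and Spearman's rho of 0.825, and r was 0.811 without the CD4 control arrays numbered 2 and 3, the 2 farthest from the median of Cat. After the means of group and number were removed r was 0.875 for this pair, and it was higher for Sod2 and Gclc (0.964), Gclc and Txnrd1 (0.957) and Sod2 and Txnrd1 (0.894). Before the removal Gclc and Txnrd1 had r of 0.572 and Sod2 and Txnrd1 0.505, and these were 0.157 and 0.0612 without the 2 arrays farthest from the median, of which the CD8 linoleic acid array numbered 3 was 1 in both.

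Sod2 and Gclc had r of 0.812 (rho 0.615), and 0.608 without the CD8 linoleic acid arrays numbered 1 and 3. The subunits Gclm and Gclc had r of 0.761 (rho 0.566), and 0.223 without the CD8 linoleic acid array numbered 3 and the CD4 linoleic acid array numbered 1, so their likeness rested on those arrays (0.778 after the removal). Cat and Txnrd1 had 0.749 and Txnrd1 and Acsl4 0.715. The lowest r, -0.495, was that of Gpx4 and Hmox1, and Hmox1 was dim throughout.

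**Figure D4:**
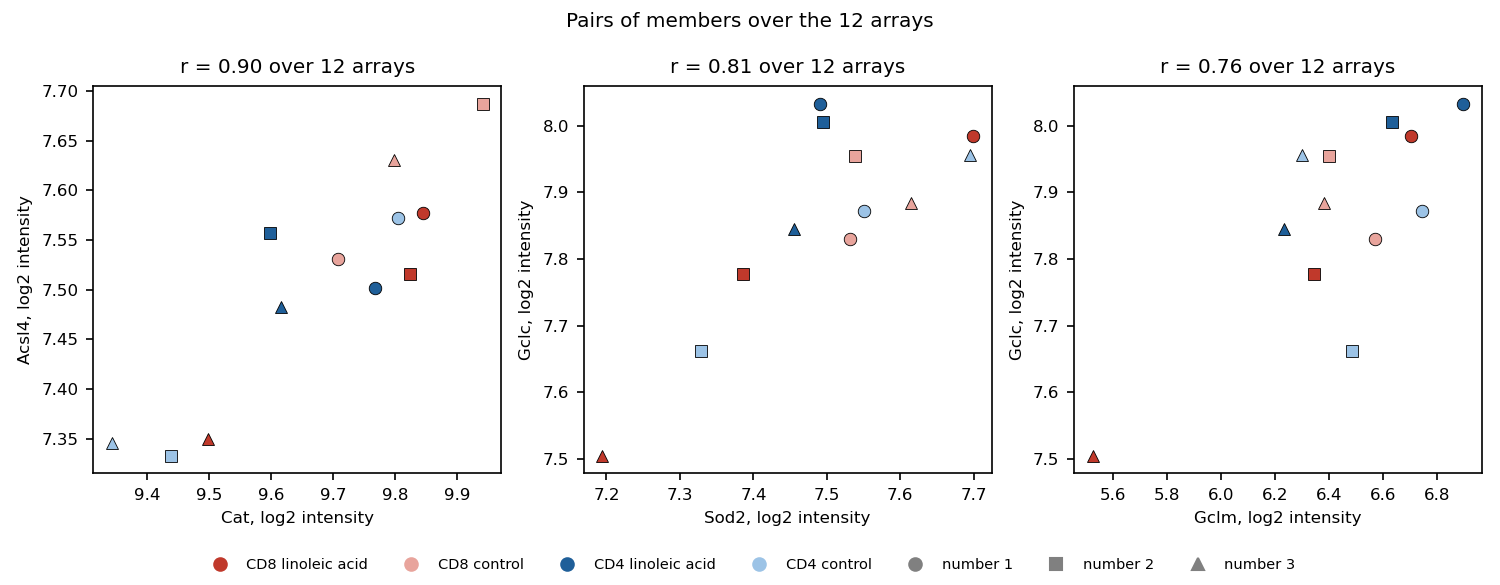
Log2 intensities of 3 pairs of genes on the 12 arrays, coloured by group and shaped by replicate number. Cat and Acsl4 (r = 0.90) form a band from the low CD4 control arrays numbered 2 and 3 to the CD8 control array numbered 2, the highest for both genes. In the pair Gclm and Gclc the CD8 linoleic acid array numbered 3 lies apart at the lower left.

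Among 12540 genes searched, the 1 with the most similar profile over the 12 arrays was found for each of the 9. Pearson's r was 0.979 for Acsl4 with Mosmo, 0.935 for Gpx4 with Hacl1, 0.926 for Sod1 with Terf1, 0.953 for Sod2 with Cep152 and 0.931 for Cat with Rpl28. It was 0.961 for Gclc with Slc23a2, 0.979 for Gclm with Ppp1r13b, 0.929 for Txnrd1 with Cdk10 and 0.833 for Hmox1 with Ywhaz, the lowest of the 9. None of the 9 had another of the 9 as its closest profile.

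The neighbours of these genes in their pathways were followed in 6 lists of 135 genes, of which 107 were tested. With linoleic acid 0 of 107 passed in either direction in CD8 T cells, in CD4 T cells, averaged over both and in the difference between responses, against 0% of all genes in each. Unadjusted p lay under 0.05 for 6 of 107 in CD8 T cells, against 5.08% of all genes, for 6 in CD4 T cells, against 2.6%, for 9 averaged over both, against 4.84%, and for 4 in the difference between responses, against 2.35%. Averaged over both cell types 82 of 107 lay below control, with a median of -0.07, against -0.04 as the median over all genes. Without the CD8 linoleic acid array numbered 3 these were 77 of 107, -0.05 and -0.02, and with 1 array left out in turn the list median lay between -0.10 and -0.05. The share of all genes below control is not given here, for these genes or for the single lists below.

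Averaged over both cell types, Glrx2, Prdx4 and Glrx5 had the smallest p of the 107. Glrx2, a mitochondrial glutaredoxin, averaged 5.76 with linoleic acid and 6.06 in control (log2 difference -0.30 ± 0.09, n = 6 per culture, unadjusted p = 0.00366, adjusted p = 0.925) and lay lower in all 3 same-numbered pairs of both cell types. Prdx4, the peroxiredoxin of the endoplasmic reticulum, stood at -0.33 ± 0.11 (adjusted p = 0.925), with a mean near the background gauge. Glrx5, a glutaredoxin of mitochondrial iron-sulfur cluster assembly, stood at -0.33 ± 0.12 (adjusted p = 0.925). Its arrays did not overlap in either cell type, which held for 9.01% of all genes in CD8 and for 7.44% in CD4 T cells. In CD4 T cells its highest treated value was 6.846 and its lowest control value 6.848. The treated CD8 arrays measured 6.91, 7.02 and 6.24, against 7.09, 7.31 and 7.21 in control.

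Glrx3 and Prdx2 had mean differences above 0 in CD8 T cells and below 0 in CD4 T cells. Glrx3, a glutaredoxin of cytosolic iron-sulfur protein assembly, had the smallest p of the 107 for the difference between responses, at -0.80 ± 0.25 (unadjusted p = 0.00694, adjusted p = 0.953). Its same-numbered pairs differed by -0.04, 0.28 and 0.49 in CD8 T cells and by -0.33, -0.37 and -0.95 in CD4 T cells. Prdx2, a cytosolic peroxiredoxin, was above control in all 3 CD8 pairs (0.25, 0.13 and 0.02) and below it in all 3 CD4 pairs (-0.40, -0.20 and -0.10), with a difference between responses of -0.36 ± 0.17 (adjusted p = 0.953). Averaged over both cell types, the glutathione system list had 16 of 21 genes below control and a median of -0.09, and the thioredoxin and peroxiredoxin list 12 of 16 and -0.08. The median over all genes was -0.04. With 1 array left out the list medians lay between -0.14 and -0.06 and between -0.11 and -0.04, and that of all genes between -0.06 and -0.02.

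NRF2, its partners, other targets and also its inhibitor Keap1 formed a list of 31 genes, 21 of them tested. A direction of the list is thus not one of NRF2 activity. In CD8 T cells 20 of 21 lay below control with linoleic acid, with a median of -0.11, against -0.06 as the median over all genes, and in CD4 T cells 10 of 21 lay below it, with a median of 0.00. For the difference between responses 18 of 21 lay above 0, with a median of 0.21, against 0.04 as the median over all genes. The list mean was 7.04, 7.05 and 6.82 in CD8 T cells with linoleic acid, against 7.01, 7.15 and 7.12 in CD8 control cells, and 7.17, 7.18 and 7.13 in CD4 T cells with linoleic acid, against 7.18, 7.05 and 7.17 in CD4 control cells.

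The array numbered 3 of the CD8 linoleic acid group was again the low one. Without it 16 of 21 NRF2 list genes lay below control in CD8 T cells (median -0.06), and the median difference between responses was 0.05, where the medians of all genes were -0.03 and 0.02. Mafg, a small MAF partner of NRF2, had the smallest p of the list for the difference between responses, at 0.35 ± 0.18 (adjusted p = 0.953). Nfe2l2, which encodes NRF2, stood at -0.07 ± 0.13 in CD8 T cells and 0.21 ± 0.13 in CD4 T cells, and Keap1 at -0.33 ± 0.15 and -0.03 ± 0.15 (adjusted p of 0.757 or above for each).

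Of the lipid peroxidation and ferroptosis genes 22 of 28 lay below control with linoleic acid averaged over both cell types. Their median was -0.06, against -0.04 as the median over all genes. With 1 array left out the list median lay between -0.09 and -0.05, and that of all genes between -0.06 and -0.02. Dhodh, the mitochondrial dihydroorotate dehydrogenase that can quench lipid radicals through ubiquinol, stood at -0.22 ± 0.09 and the reductase Cyb5r1 at -0.28 ± 0.12 (adjusted p = 0.925 for each).

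Some genes of that list lay above control in CD8 T cells. Alox12b, a lipoxygenase best known from the epidermis, had the smallest p of the 107 there and measured 4.75, 4.76 and 5.33 in CD8 T cells with linoleic acid, against 4.46, 4.26 and 4.69 in CD8 control cells. Its log2 difference was 0.47 ± 0.16 in CD8 T cells (unadjusted p = 0.0118, adjusted p = 0.757) and -0.08 ± 0.16 in CD4 T cells. Acsl6, a relative of Acsl4 best known from brain, measured 4.84, 4.92 and 5.02 in CD8 T cells with linoleic acid, against 4.61, 4.72 and 4.74 in CD8 control cells, a log2 difference of 0.24 ± 0.11 (adjusted p = 0.757), and stood at -0.13 ± 0.11 in CD4 T cells. For both genes every treated CD8 array lay above every CD8 control array, and the 2 groups stood apart in this way or the other for 9.01% of all genes. The group means of both genes lay below the background gauge of 5.10. The difference between responses was -0.55 ± 0.23 for Alox12b and -0.37 ± 0.15 for Acsl6 (adjusted p = 0.953 for each).

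The selenoprotein synthesis list held genes of synthesis, which Gpx4 and Txnrd1 depend on, and also selenoproteins themselves. Averaged over both cell types 16 of its 17 tested genes lay below control, with a median of -0.09, against -0.04 as the median over all genes. Without the CD8 linoleic acid array numbered 3 the list median was -0.04, against -0.02 over all genes. It was -0.13 without the CD4 control array numbered 2. Selenos, a selenoprotein of the endoplasmic reticulum, stood at -0.24 ± 0.10 and Sephs2, which makes selenophosphate, at -0.23 ± 0.10 (adjusted p = 0.925 for each). Superoxide and oxidase genes had 6 of 9 below control and a median of -0.01, which lay above the -0.04 of all genes. Without the CD8 linoleic acid array numbered 3 these were 4 of 9 and 0.02, against -0.02 over all genes.

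Between cell types a few of these neighbours passed, in numbers near the shares of all genes. In linoleic acid culture 1 of 107 was higher and 2 were lower in CD8 T cells, against 0.719% and 1.31% of all genes. With the replicate block 3 of 107 were higher and 4 lower, against 5.57% of all genes in both directions together. In control culture 1 was higher and 1 lower, against 1.03% and 0.929%. Averaged over cultures 2 were higher, Slc11a2 and Ncf1, and 3 lower, Selenop, Ccs and Msrb2, against 1.95% and 2.76%. The B cell marker means were lower on the CD8 array in all 6 same-numbered pairs, and their part in these 5 differences was not tested.

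Slc11a2, the divalent metal transporter that releases iron from endosomes, measured 7.48, 7.15 and 6.97 in CD8 T cells with linoleic acid, against 6.62, 6.46 and 6.44 in CD4 T cells with linoleic acid. In control culture it measured 7.61, 7.46 and 7.34 in CD8 T cells, against 6.55, 6.38 and 6.72 in CD4 T cells. All 6 CD8 arrays lay above all 6 CD4 arrays. Averaged over cultures it was 1.75-fold higher in CD8 T cells (log2 0.81 ± 0.10, adjusted p = 0.000227), 0.69 ± 0.15 in linoleic acid culture (adjusted p = 0.0235) and 0.92 ± 0.15 in control culture (adjusted p = 0.00287). The call in linoleic acid culture ended without any of 4 of its 6 arrays, the CD8 ones numbered 1 and 2 and the CD4 ones numbered 2 and 3 (adjusted p up to 0.117). That call also ended without all arrays numbered 1 (limma adjusted p = 0.104) and in a fit of the compared groups alone.

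Selenop, the plasma selenium carrier whose product supplies selenium to cells, measured 6.72, 6.45 and 6.54 in CD8 T cells with linoleic acid, against 7.68, 7.34 and 7.28 in CD4 T cells with linoleic acid. In control culture it measured 6.73, 6.66 and 6.59 in CD8 T cells, against 7.71, 7.17 and 7.26 in CD4 T cells. The cell types did not overlap. Averaged over cultures it was 1.73-fold lower in CD8 T cells (-0.79 ± 0.11, adjusted p = 0.000485), at -0.86 in linoleic acid culture (adjusted p = 0.00858) and -0.72 in control culture (adjusted p = 0.0275). The call in control culture ended without any of its arrays except the CD4 one numbered 2 (adjusted p up to 0.114). It also ended without all arrays numbered 1 (limma adjusted p = 0.0713).

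Ccs, the chaperone that loads copper into Sod1, averaged 6.42 over the 6 CD8 arrays and 6.97 over the 6 CD4 arrays, 1.47-fold lower in CD8 T cells (-0.55 ± 0.10, adjusted p = 0.00416), while Sod1 itself stood at -0.10 ± 0.11 in that comparison. In linoleic acid culture Ccs stood at -0.67 ± 0.14 (adjusted p = 0.0242), and that call ended without any of the 3 CD4 arrays or the CD8 array numbered 3 (adjusted p up to 0.0927). It also ended without all arrays numbered 1 (limma adjusted p = 0.0855) and in a fit of the compared groups alone. Msrb2, a methionine sulfoxide reductase of mitochondria, was 1.35-fold lower in CD8 T cells averaged over cultures (-0.43 ± 0.10, adjusted p = 0.0194). That call ended without the CD4 linoleic acid array numbered 1 or either of the CD8 control arrays numbered 2 and 3 (adjusted p up to 0.0573), and without all 4 arrays numbered 1 (adjusted p = 0.0517).

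Ncf1, the organiser subunit of the phagocyte NADPH oxidase, was 2.22-fold higher in CD8 T cells averaged over cultures (log2 1.15 ± 0.24, adjusted p = 0.0125). It measured 8.18, 8.23 and 8.29 in CD8 T cells with linoleic acid, against 6.43, 7.61 and 7.44 in CD4 T cells with linoleic acid. In control culture it measured 7.92, 8.17 and 8.38 in CD8 T cells, against 5.99, 7.51 and 7.29 in CD4 T cells. Its 2 lowest values were the CD4 arrays numbered 1, where the B cell marker mean was also lower than on the CD4 arrays numbered 2 and 3 (6.54 and 6.53 against 7.73 to 7.98). B cells are known to use Ncf1, and their part in the CD4 values was not tested. Without the arrays numbered 1 the difference was 0.81 (adjusted p = 0.00116). Cybb, of the same superoxide and oxidase list, ran the other way and did not pass without the block. Its CD8 minus CD4 pairs were -0.90, -0.44 and -0.60 in linoleic acid culture and -0.81, -0.72 and -0.53 in control culture. Averaged over cultures 5 of the 9 tested genes of that list lay above 0 and 4 below.

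**Figure D5:**
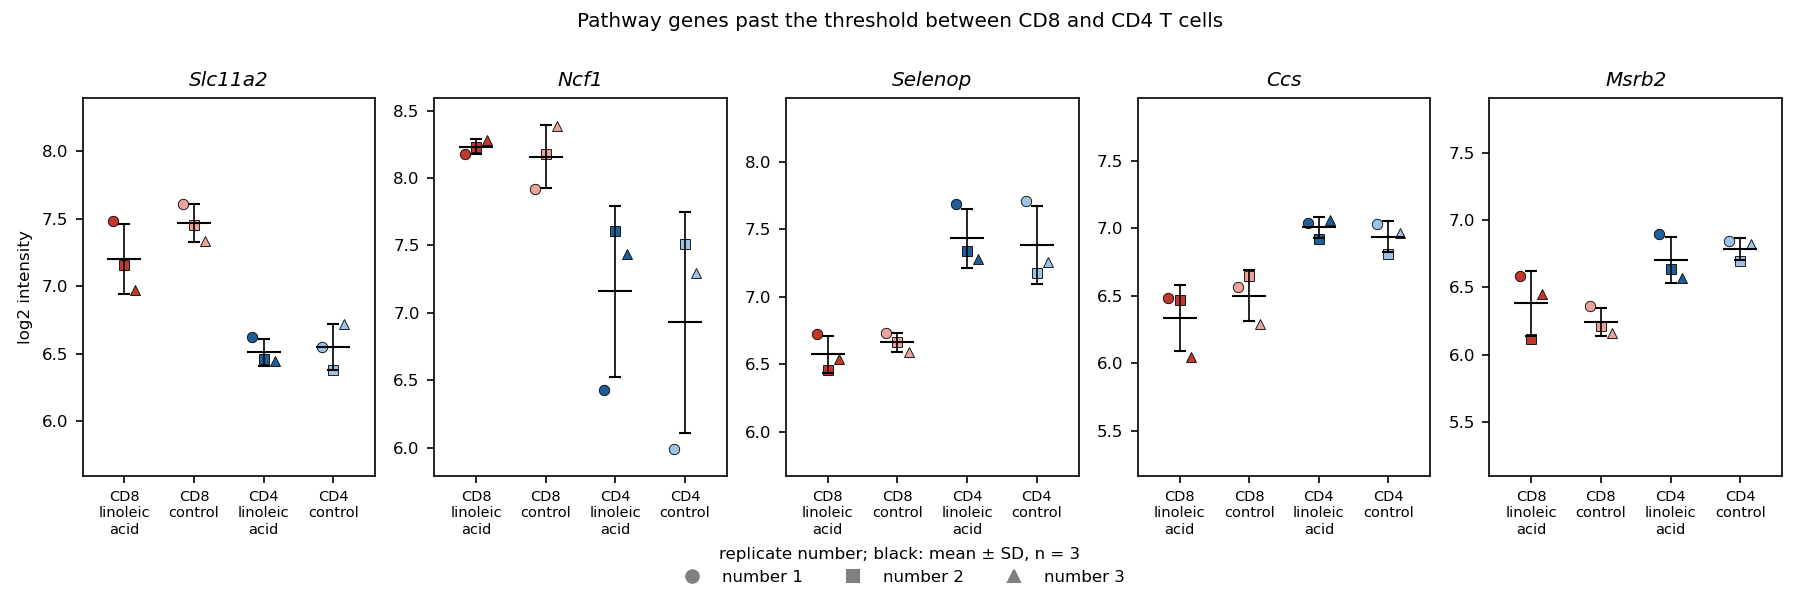
Log2 intensity of the 5 pathway genes past the threshold between CD8 and CD4 T cells averaged over cultures, by group (points, shaped by replicate number) with the mean and SD of 3 arrays (black); every panel spans 2.8 log2 units. Slc11a2 and Ncf1 are higher and Selenop, Ccs and Msrb2 lower in CD8 T cells, by log2 0.81, 1.15, -0.79, -0.55 and -0.43, and in each gene the 2 cultures of a cell type overlap.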

How the data were processed

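RNA of sorted mouse T cells was amplified, labelled with biotin and hybridized to Affymetrix MoGene-2_0-st arrays, which use 1 colour, with 12 arrays in 4 groups of 3. The deposited values are log2 intensities per probe set, summarized by the authors with RMA per the submitters' processing notes. RMA corrects background, normalizes quantiles across arrays and so forces a common distribution on them. Its software, version, summary level and genome build were not given in the sources used here. Gene symbols came from the platform's annotation, and of 41345 probe sets 23521 carried 1 symbol, 1814 several and 16010 none. The set with the highest mean stood for a gene with several, and genes with a mean below the 40th percentile of probe set means (log2 4.28) were left out, which kept 14323.

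All 12 arrays were fitted in limma 3.58.1 (R 4.3.3; lmFit and eBayes, two-sided, 8 residual and 5.67 prior degrees of freedom) with 7 contrasts of group means and no block, and p-values were adjusted by Benjamini-Hochberg over all 14323 genes. The fit was tested on simulated data. Precision is limited by having 3 arrays a group. Contrasts set linoleic acid against control in CD8 T cells, in CD4 T cells and averaged, took the CD4 minus CD8 response, and set CD8 against CD4 T cells in each culture and averaged. The labels number the arrays 1 to 3 in each group. Each array's deviation from its group mean was correlated across genes with that of the array of the same number, which gave r of 0.428, 0.195 and 0.417 between the CD8 cultures, 0.608, 0.194 and 0.317 between the CD4 cultures and 0.578, 0.256 and 0.522 for CD8 and CD4 with linoleic acid, each over 0.1. No label states a pairing, so for these comparisons the values with the number as a block are given beside those without it where they differ in calls. The printed errors and intervals, and every p not said to come from the block, are those without it. For CD8 and CD4 in control culture they were 0.538, -0.0132 and 0.421, and no pairing was taken. The same-numbered differences printed for that comparison describe the arrays and are not a paired test.

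Named were the 10 genes, up to 4 genes with the smallest p of each pathway list in a contrast, the gene most like each of the 10 (predicted genes, receptor segments, chemosensory receptors and small RNAs left out) and Cpt1a. Of the pathway genes, those past the threshold without the replicate block were all named. Those past it only with the block were counted and not all named. Cybb was named beside Ncf1 as a gene of the same list. The genes, the lists and the cell type markers were chosen with earlier results of these data known. Promoters came from RefSeq on GRCm38.p6, and 8 of the 10 genes had a window. Marker lists of dendritic, NK and platelet cells averaged 4.48 to 5.37 on single arrays, and the erythroid list, with 2 measured genes, 3.90 to 4.55. Alternatives were another filter or none, all probe sets averaged, arrays centred or quantile normalized again, an intensity trend, array weights, the replicate block, a fit of the compared groups alone, each array left out, and, chosen after seeing the data, the arrays numbered 1 left out.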

Additional observations from a re-analysis of the deposited data

How the results depend on the processing

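Of the 1136 values of the 9 genes under 22 other settings, 2 had an adjusted p under 0.05, both with array weights, whose estimate stopped short of its convergence tolerance: Cat was higher in CD8 T cells averaged over cultures (log2 0.27, adjusted p = 0.0452), and Hmox1 was lower in CD8 T cells in linoleic acid culture (-0.52, adjusted p = 0.0284), 1 of 9 genes in each. Signs changed in 104 of these values, 68 of them with 1 array left out, all of genes not past the threshold. With the replicate block 0 of the 9 genes passed (smallest adjusted p 0.161). In CD8 against CD4 averaged over cultures, the 674 genes past the threshold became 1473 with weights and 1322 with the replicate block, and the 5 pathway genes 17 and 10. In control culture 280 genes became 630 with the block and 176 to 223 with 1 array left out, and 2 pathway genes became 4 with weights, 6 with the block, 1 with arrays centred on a common median (Selenop lost) and 1 to 2 with 1 array left out. In linoleic acid culture 291 genes became 2299 with weights, 798 with the block, 138 in a fit of those groups alone and 150 to 322 with 1 array left out, and 3 pathway genes became 17, 7, 1 and 1 to 2, with Slc11a2 also lost when arrays were centred. For linoleic acid averaged over cell types, 0 genes became 3 with weights, 1 after quantile normalization, 26 with the block, 1 without the arrays numbered 1 and 0 to 1 with 1 array left out. In CD4 T cells 0 became 1 with weights, with the block or without the arrays numbered 1, and in CD8 T cells 213 with weights (1 a pathway gene) and 1 with the block. Fewer arrays enter the fit of 2 groups and the fits without an array; for the other settings the cause was not tested. Centring shifted the median of all genes by up to 0.06 and quantile normalization by up to 0.05. Intensities near the background gauge, those of Hmox1, compress differences.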
